A study of Mus musculus with 2 samples.

Results

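The THEMIS family and its signaling partners were followed through liver nuclei of mice with diet-induced metabolic dysfunction–associated steatohepatitis (MASH). The genes were chosen by symbol: *Themis*, *Themis2*, the adaptor gene *Grb2*, and *Ptpn6* and *Ptpn11*, which encode the phosphatases SHP1 and SHP2. All 5 were found among the 32285 genes of the count matrices. Nuclei came from livers of male C57BL6/J mice put on an AMYLIN liver NASH diet (40 kcal% fat, 20 kcal% fructose, 2% cholesterol) at 10 to 12 weeks of age and kept on it for 5 months. The library called Flox (titled WT) carried *Themis* flox/flox alleles, and the one called HKO was *Themis* Alb-Cre, a line in which the albumin promoter drives Cre in hepatocytes. Both groups shared the diet, the sex and the strain. Liver of several mice was pooled per genotype into 1 library, so animals cannot be separated, genotype and library cannot be told apart, and no test between the libraries was possible. Intervals in brackets are at the 95% level and cover counting error only. The comparison asks where in the liver these genes were expressed and how their levels differed between the library labelled HKO and that labelled Flox.

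THEMIS is a T lineage protein known for its role in thymocyte development. It binds GRB2 constantly and joins SHP1 and SHP2 downstream of the T cell receptor, where it sets the strength of signaling toward RAS and ERK. THEMIS2 is its relative in B cells and macrophages. GRB2 couples activated receptors to the RAS exchange factor SOS, SHP1 is a mostly hematopoietic phosphatase recruited by inhibitory receptors, and SHP2 is a broadly expressed phosphatase that promotes RAS signaling below growth factor receptors. Hepatocytes are not a classical site of *Themis* expression.

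In the GENCODE annotation of GRCm38, *Themis* (ENSMUSG00000049109) lies on chromosome 10 from 28668360 to 28883818 on the plus strand, *Themis2* (ENSMUSG00000037731) on chromosome 4 from 132781843 to 132796387 on the minus strand, and *Grb2* (ENSMUSG00000059923) on chromosome 11 from 115644045 to 115708597 on the minus strand. *Ptpn6* (ENSMUSG00000004266) lies on chromosome 6 from 124720707 to 124738714 and *Ptpn11* (ENSMUSG00000043733) on chromosome 5 from 121130533 to 121191397, both on the minus strand. The genes sit on 5 chromosomes, and all are protein coding. The 250 bases before the start are shown for a gene of T cells and hepatocytes, a gene high in macrophages and both phosphatases. Of the phosphatases, *Ptpn6* was concentrated in immune cells and *Ptpn11* was found in every type with at least 50 nuclei. The sequences are from RefSeq (GRCm38.p6), each read 5′ to 3′ on the strand of its gene, at chr10:28668110-28668359 (plus), chr4:132796365-132796614 (minus), chr6:124738710-124738959 (minus) and chr5:121191398-121191647 (minus). Capitals mark matches to the GC box (GGGCGG) and the cAMP response element (TGACGTCA) on either strand.
Themis: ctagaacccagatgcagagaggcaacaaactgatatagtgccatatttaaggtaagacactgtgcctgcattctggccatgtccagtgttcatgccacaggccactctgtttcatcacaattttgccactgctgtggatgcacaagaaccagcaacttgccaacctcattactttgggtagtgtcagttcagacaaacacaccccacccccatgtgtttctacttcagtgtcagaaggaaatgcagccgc
Themis2: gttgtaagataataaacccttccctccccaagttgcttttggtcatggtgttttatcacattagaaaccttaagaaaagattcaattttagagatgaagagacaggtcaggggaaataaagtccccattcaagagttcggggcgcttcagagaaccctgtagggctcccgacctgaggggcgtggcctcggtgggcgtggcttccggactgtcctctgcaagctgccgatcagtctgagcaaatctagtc
Ptpn6: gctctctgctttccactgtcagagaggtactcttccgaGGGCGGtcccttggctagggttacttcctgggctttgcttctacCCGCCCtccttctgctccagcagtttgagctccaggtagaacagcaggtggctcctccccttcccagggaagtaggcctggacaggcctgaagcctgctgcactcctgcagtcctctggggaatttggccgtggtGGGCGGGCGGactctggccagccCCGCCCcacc
Ptpn11: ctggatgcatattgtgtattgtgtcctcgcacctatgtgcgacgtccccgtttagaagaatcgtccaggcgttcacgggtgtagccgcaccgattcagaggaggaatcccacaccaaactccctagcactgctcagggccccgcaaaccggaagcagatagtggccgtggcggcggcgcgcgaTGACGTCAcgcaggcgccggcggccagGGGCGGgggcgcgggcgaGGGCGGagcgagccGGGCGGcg
The *Themis* stretch held 1 CpG and the *Ptpn11* stretch held 31, against a median of 6 over 32536 promoter stretches of that length. *Themis2* held 8 CpG and *Ptpn6* held 7. GC boxes stood 5 times in the *Ptpn6* stretch, of which a pair overlapped, and 3 times in that of *Ptpn11*, and 33.0% of all promoter stretches held at least 1. The cAMP response element of *Ptpn11* was held by 1.56% of promoter stretches. Neither the *Themis* nor the *Themis2* stretch matched any of the 7 motifs searched, which also comprised TCF/LEF (CTTTGAT, 3.21% of promoter stretches), RUNX (TGTGGT, 13.96%), PU.1 (GAGGAAGT, 2.45%), HNF4 (CAAAGTCCA, 0.387%) and the TATA box (TATAAA, 12.3%).

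Of the nuclei with at least 300 genes, 8722 of 9360 in the library labelled Flox and 9147 of 10721 in that labelled HKO were named from marker UMIs (unique molecular identifiers, each 1 counted transcript). The median depth over all barcodes was 6216 and 2228 UMIs. Some 27 barcodes occurred in both libraries. Markers that had not been used for naming were highest in their own type for all 7 types with at least 50 nuclei in each library, except *Cd2* in T cells. Hepatocytes numbered 6254 and 4832, T cells 110 and 164, B cells 69 and 82, macrophages 551 and 1232, endothelial cells 708 and 1174, HSCs (hepatic stellate cells) 819 and 1149, and cholangiocytes 117 and 428. Below, levels are CPM, the UMIs of a gene scaled to the total UMIs of the summed nuclei, and pairs of values give the library labelled Flox first.

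The targeted gene was examined first. In hepatocytes *Themis* stood at 158 CPM [155 to 162] in the library labelled Flox and at 247 CPM [242 to 253] in that labelled HKO, from 8033 and 7662 UMIs. The targeted gene was thus at 1.56-fold [1.51 to 1.61] the Flox level, higher rather than lower, in the library whose label names its hepatocyte deletion. The gene totals do not tell which exons the reads came from, so they show neither whether the floxed part was present nor whether protein could be made. The labels of the libraries could not be checked with this gene, and each HKO over Flox value below rests on them as given. Of the other members, *Ptpn11* was 1.09-fold [1.01 to 1.18] and *Ptpn6* 1.16-fold [0.953 to 1.41] the level of the library labelled Flox, and *Grb2* 0.923-fold [0.835 to 1.02]. Among the 4 members with at least 200 hepatocyte UMIs, 1 was past 1.5-fold upward and 0 downward, where 7.25% and 8.21% of 11442 genes were. *Themis2* had 24 and 34 hepatocyte UMIs, under that limit.

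RNA of T cells in the hepatocyte nuclei was looked at beside this level. The 15 T cell markers summed to 5.44 and 9.39 CPM in hepatocytes, which is 0.0881% and 0.141% of their level in T cells, with single markers between 0 and 2.00 CPM. *Cd3e*, *Cd3g* and *Cd3d* together had 39 and 61 UMIs there. Without the 29 and 43 hepatocyte nuclei that held any of these, *Themis* stood at 158 and 247 CPM.

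**Figure D1:**
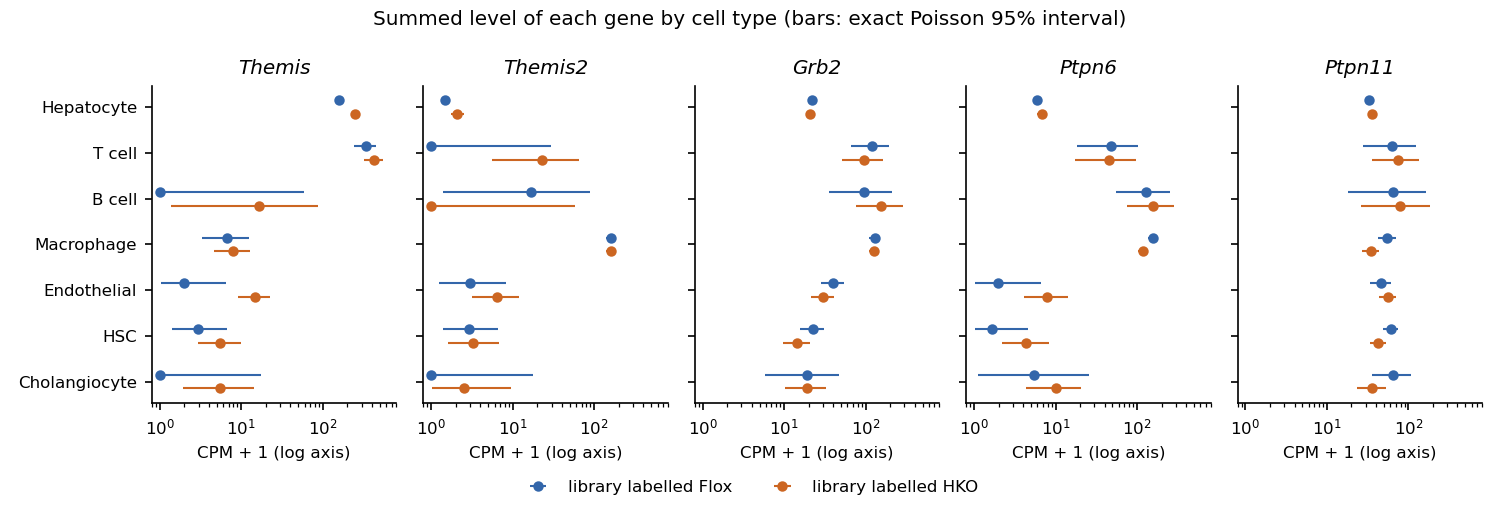
Level of the 5 genes (CPM plus 1, log axis) in 7 cell types, with blue points for the library labelled Flox, orange points for that labelled HKO, and bars for exact Poisson 95% intervals. *Themis* was high in T cells and hepatocytes, *Themis2* in macrophages, *Ptpn6* and *Grb2* in immune cells, and *Ptpn11* stayed between 32.2 and 77.5 CPM everywhere.

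Across cell types, *Themis* was highest in T cells and next in hepatocytes in both libraries. T cells held 337 CPM [244 to 454] and 425 CPM [323 to 550] from 43 and 58 UMIs, so that the HKO over Flox ratio of 1.26 [0.837 to 1.92] could not be told from 1. The T cell level was 2.13-fold [1.54 to 2.87] that of hepatocytes in the library labelled Flox and 1.72-fold [1.31 to 2.23] in that labelled HKO. T cells with UMIs of *Cd8a* or *Cd8b1* alone held 572 CPM [304 to 978] in 18 nuclei and 510 CPM [320 to 772] in 51 nuclei. T cells with *Cd4* alone held 183 CPM [59.6 to 428] in 22 nuclei and 160 CPM [19.4 to 578] in 13 nuclei, from 5 and 2 UMIs. The Cd8 values lay above the Cd4 values in both libraries, with overlapping intervals. Most T cell nuclei, 69 and 100, had UMIs of none of these genes. They held 326.5 CPM [211 to 482] and 421 CPM [292 to 589] of *Themis*, from 25 and 34 UMIs.

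The remaining types were low in *Themis*. Macrophages stood at 5.65 and 6.91 CPM, HSCs at 1.95 and 4.48 CPM, and cholangiocytes at 0 and 4.54 CPM, where 0 UMIs allow up to 13.5 CPM. Endothelial cells stood at 0.996 CPM from 1 UMI and at 13.8 CPM [8.16 to 21.8] from 18 UMIs. The latter lay in 12 nuclei, and 8 of the 18 UMIs in nuclei with at least 5000 UMIs, without which the level was 7.99 CPM [3.83 to 14.7]. Hepatocyte markers were found in these nuclei too. In endothelial nuclei the 17 hepatocyte markers summed to 6.87% and 9.74% of their hepatocyte level, and *Themis* to 0.629% and 5.57% of its own, and in macrophages, HSCs, B cells and cholangiocytes the *Themis* percentage was likewise under the marker percentage. The part of hepatocyte RNA in these *Themis* values was not tested. Neighbors in the order of these low types could not be told apart, since the intervals of their ratios held 1 or both had 0 UMIs. Types further apart in that order were not compared.

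Among the 7 types with at least 50 nuclei, *Themis2* was highest in macrophages. Macrophages held 162 CPM [141 to 186] and 158 CPM [141 to 177], from 201 and 297 UMIs, and the ratio between the libraries was 0.974 [0.812 to 1.17]. Hepatocytes held 0.473 and 1.10 CPM, and T cells 0 and 22 CPM, the latter from 3 UMIs. B cells held 15.9 CPM from 1 UMI and 0 CPM, where 0 UMIs allow up to 46.5 CPM. Neutrophils held 4 UMIs in 24 nuclei and 0 UMIs in 6 nuclei. After thinning to 1000 UMIs per nucleus, 14.3% and 14.2% of macrophages had a *Themis2* UMI, compared with 0.164% and 0.359% of endothelial cells. Without thinning the macrophage shares were 27.6% and 20.1%, at median depths of 2091 and 1408 UMIs, and the endothelial shares 0.283% and 0.596% at 1315 and 979 UMIs. Dendritic cells held 15 *Themis2* UMIs in 47 nuclei and 1 UMI in 44 nuclei, or 163 CPM [91.3 to 269] and 18.8 CPM [0.475 to 104]. *Themis3*, the third family gene, had 0 UMIs in hepatocytes of either library and 1 UMI in all named nuclei.

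*Ptpn6*, encoding SHP1, followed the hematopoietic cells. B cells held 127 CPM [54.9 to 251] and 155 CPM [74.3 to 285], and macrophages 156 CPM [135 to 180] and 116 CPM [102 to 133]. T cells held less, 47.0 and 44.0 CPM from 6 UMIs in each library, and hepatocytes 5.01 CPM [4.41 to 5.66] and 5.81 CPM [4.99 to 6.72]. In macrophages *Ptpn6* was 0.744-fold [0.611 to 0.908] the level of the library labelled Flox. Endothelial cells (0.996 and 6.88 CPM) and HSCs (0.648 and 3.36 CPM) lay low as well, and in the library labelled HKO neither could be told from hepatocytes. The 15 macrophage markers summed in hepatocytes to 0.404% and 0.898% of their macrophage level, with 0 of them absent and the highest at 18.6 and 15.2 CPM, and the part of such RNA in the hepatocyte level of *Ptpn6* was not tested.

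*Grb2* was present in every type with enough nuclei, with an immune excess. Macrophages held 128 and 124 CPM, T cells 118 and 95.4 CPM, and B cells 95.4 and 155 CPM, and none of these neighbors could be told apart. Endothelial cells followed with 38.8 and 29.1 CPM, then hepatocytes with 21.3 CPM [20.1 to 22.6] and 19.7 CPM [18.2 to 21.3], HSCs with 21.4 and 13.5 CPM, and cholangiocytes with 18.01 and 18.2 CPM. *Ptpn11*, encoding SHP2, varied least. It lay between 32.2 CPM in hepatocytes and 63.6 CPM in B cells of the library labelled Flox, and between 33.5 CPM in macrophages and 77.5 CPM in B cells of that labelled HKO. Its level was lower in the library labelled HKO in macrophages, at 54.0 against 33.5 CPM (0.620-fold [0.433 to 0.888]), and in HSCs, at 59.7 against 41.5 CPM (0.695-fold [0.505 to 0.955]).

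The members therefore met in different combinations. In T cells *Themis* stood above *Grb2*, *Ptpn11* and *Ptpn6* in both libraries, and in macrophages *Themis2*, *Ptpn6* and *Grb2* lay between 116 and 162 CPM. In hepatocytes *Themis* was accompanied by *Ptpn11* and *Grb2*, with *Ptpn6* at 5.01 and 5.81 CPM. These are UMI levels of 3′ libraries, in which a transcript counts once whatever its length.

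Hepatocytes are arranged in zones between the portal vein and the central vein, and *Glul* (glutamine synthetase) and *Slc1a2* (a glutamate transporter) mark the innermost pericentral cells. Nuclei with at least 0.1% of UMIs in both genes together numbered 1135 and 806, and the others 5119 and 4026. *Themis* stood at 305 CPM [293 to 317] in the former and 132 CPM [129 to 136] in the latter of the library labelled Flox, so that the zones differed 2.30-fold [2.19 to 2.42]. The library labelled HKO held 415 CPM [396 to 434] and 219 CPM [214 to 225], and its zonal ratio was 1.90 [1.80 to 2.00]. The HKO over Flox ratio was 1.36 [1.28 to 1.45] in *Glul*- and *Slc1a2*-high nuclei and 1.65 [1.60 to 1.72] in the others, and these intervals did not overlap. The partners showed no pericentral excess. *Grb2* had a ratio of 0.982 [0.825 to 1.16] and 0.923 [0.723 to 1.17] between the zones, *Ptpn11* of 0.860 [0.742 to 0.993] and 0.830 [0.687 to 0.996], and *Ptpn6* of 0.904 [0.614 to 1.30] and 0.580 [0.324 to 0.971].

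To place hepatocytes along the whole lobule, nuclei were ranked within each library by the share of pericentral UMIs among those of 12 pericentral and 10 periportal genes, and divided into 10 bins of equal size. Neither *Themis*, *Glul* nor *Slc1a2* entered this index. In the library labelled Flox *Themis* stood at 0.459, 1.53 and 7.16 CPM in the 3 most periportal bins, at 40.2, 129, 199 and 242 CPM in the middle 4, and at 266, 323 and 373 CPM in the 3 most pericentral bins. In the library labelled HKO it stood at 23.9, 69.7 and 134 CPM, then at 205, 277, 300 and 367 CPM, and then at 369, 389 and 415 CPM. *Themis* increased at each step in both libraries, and the libraries were far apart at the periportal end and close at the pericentral end. Since nuclei were ranked within each library, bins of the same number need not hold the same index. The median index was 0.096 and 0.115 in bin 3, 0.361 and 0.268 in bin 5, and 0.605 and 0.469 in bin 7. Over the 3 most periportal bins, *Cyp2f2* (347 and 210 CPM) and *Hal* (291 and 172 CPM) were lower in the library labelled HKO. *Sds* (580 and 713 CPM) and *Hsd17b13* (408 and 496 CPM) were higher there.

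**Figure D2:**
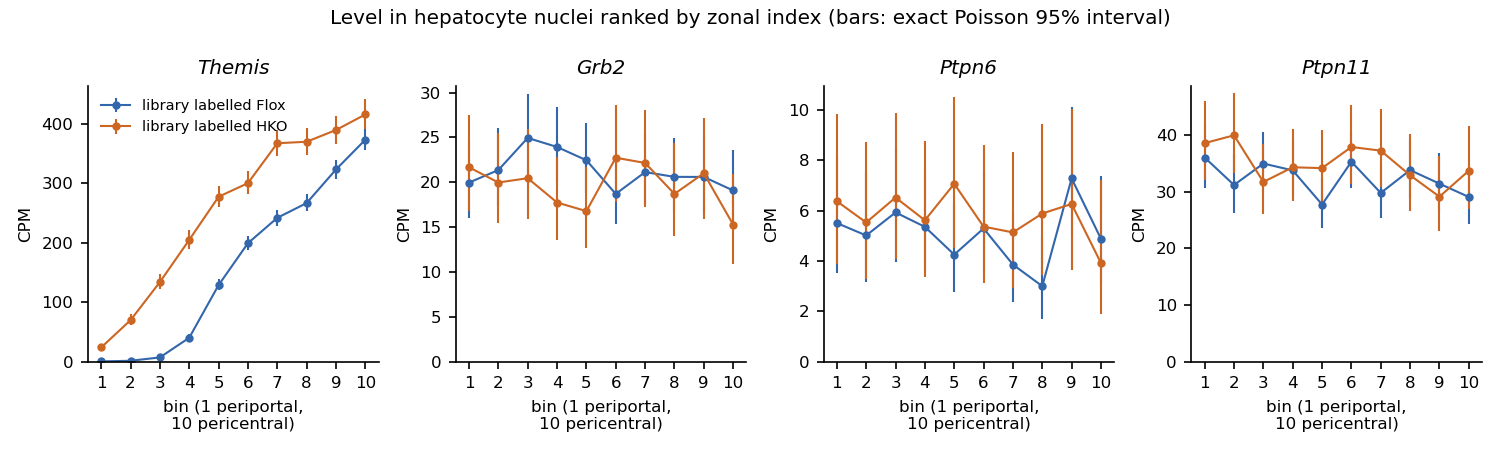
Level (CPM, linear axes from 0) of 4 genes in hepatocyte nuclei ranked from the most periportal bin (1) to the most pericentral bin (10), blue for the library labelled Flox and orange for that labelled HKO, with exact Poisson 95% intervals. *Themis* climbed from 0.459 to 373 CPM and from 23.9 to 415 CPM, while *Grb2*, *Ptpn6* and *Ptpn11* showed no such slope.

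Over the 3 most periportal bins together, *Themis* had 44 UMIs in 1877 nuclei and 753 UMIs in 1450 nuclei, which is 3.18 CPM [2.31 to 4.27] and 77.1 CPM [71.7 to 82.8]. The level in the library labelled HKO was 24.2-fold [17.9 to 33.7] higher. On the log2 scale with a pseudocount of 1 CPM this was 4.22, and it was 3.41 when nuclei were thinned to 2000 UMIs before ranking and 2.72 with a pseudocount of 10 CPM. The ratio was 1.88 [1.80 to 1.97] over the middle 4 bins and 1.22 [1.17 to 1.28] over the 3 most pericentral bins. With a pseudocount of 1 CPM, the log2 ratios of these were 0.91 and 0.29. Among 9173 genes with at least 200 UMIs in the 3 most periportal bins, 6.03% were at least 1.5-fold higher and 8.82% at least 1.5-fold lower in the library labelled HKO, and *Themis* ranked at position 2 of the upward log2 ratios with that pseudocount. By the plain fold, *Cyp2a4*, *Cyp2b9* and *Limch1* stood above it. In the middle 4 bins it ranked at position 211 of 10057 genes and in the 3 most pericentral bins at position 2116 of 9065.

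Innermost pericentral RNA in the periportal nuclei was read from *Glul* and *Slc1a2*. These genes cannot show midlobular nuclei among them. In bin 4 of the library labelled HKO, *Slc1a2* stood at 2.66 CPM and *Themis* at 205 CPM. In the 3 most periportal bins *Glul* reached 1.38% [1.19 to 1.59] and 1.57% [1.37 to 1.80] of its level in the 3 most pericentral bins, and *Slc1a2* reached 0.337% [0.248 to 0.447] and 0.316% [0.225 to 0.433]. In CPM, *Glul* stood there at 13.7 and 22.1, or 1.62-fold [1.33 to 1.98] higher in the library labelled HKO, and *Slc1a2* at 3.47 and 3.99, a ratio whose interval of 0.735 to 1.79 held 1. *Themis* reached 0.997% [0.724 to 1.34] and 19.8% [18.2 to 21.4]. For *Glul* and *Slc1a2*, which lie outside the index, the intervals of this share overlapped between the libraries. Among the 12 pericentral genes that made up the index, the share was higher in the library labelled HKO for 10 and lower for 2, *Oat* and *Slc13a3*. These 12 also ranked the nuclei, so their shares are not independent of the bins. Some of their intervals overlapped between the libraries, among them those of *Axin2*. *Cyp2e1*, a cytochrome that oxidizes ethanol, went from 5.02% to 12.1%, and the Wnt target *Axin2* from 1.36% to 3.94%.

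**Figure D3:**
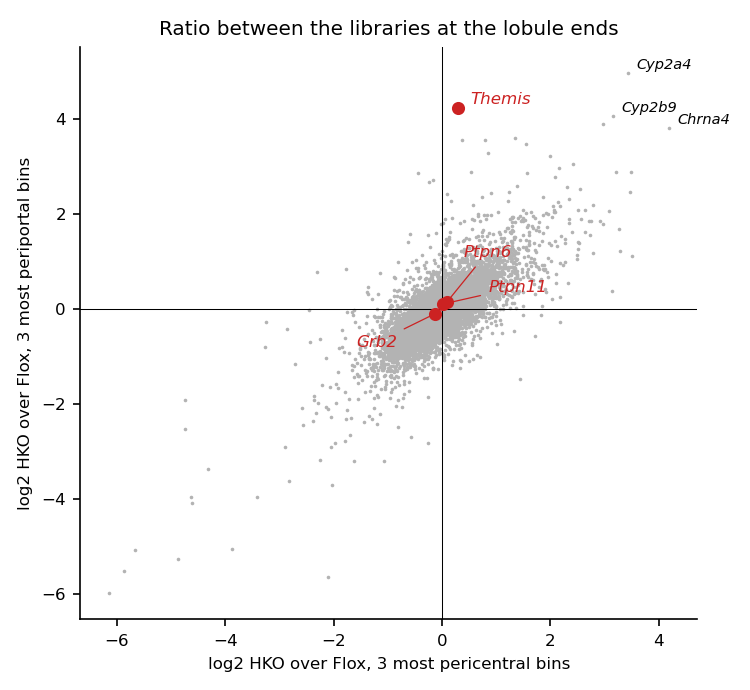
HKO over Flox ratio (log2, pseudocount of 1 CPM) in the 3 most pericentral bins (horizontal) and the 3 most periportal bins (vertical), 1 gray point per gene with at least 200 hepatocyte UMIs and red points for the members. *Themis* lies at 0.29 and 4.22, while *Grb2*, *Ptpn6* and *Ptpn11* lie near 0 on both axes.

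The genes next to *Themis* in the periportal ranking were chosen after their values were seen. *Cyp2a4*, a steroid hydroxylase gene, ranked first with 0 and 295 UMIs, or at least 139-fold higher if 3 counts are allowed for the library labelled Flox. It is nearly identical to *Cyp2a5*, so reads of the pair may have been split. *Cyp2b9*, a cytochrome known to be female-biased in mouse liver, stood at 0.867 and 30.1 CPM, and *Fmo2*, a flavin monooxygenase, at 4.34 and 77.6 CPM. Unlike *Themis*, these genes were also much higher at the pericentral end of the library labelled HKO, with log2 ratios of 3.43 for *Cyp2a4*, 3.16 for *Cyp2b9* and 2.97 for *Fmo2*. *Pparg*, the lipogenic nuclear receptor, was closer to *Themis* in this respect, at 1.88 and 20.0 CPM in the 3 most periportal bins and at 49.7 and 36.5 CPM in the 3 most pericentral bins. So were *Cyp2a5*, with periportal and pericentral log2 ratios of 2.87 and 0.53, *Plin4* (2.705 and -0.17) and *Cidec* (1.56 and -0.26). Other lipid droplet and PPAR-γ genes differed, among them *Vldlr*, higher at both ends (2.305 and 2.35), and *G0s2*, lower at both (-0.40 and -0.82).

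The partners were level along the index. From the 3 most periportal to the 3 most pericentral bins, *Grb2* went from 22.2 to 20.1 CPM in the library labelled Flox and from 20.7 to 18.4 CPM in that labelled HKO. *Ptpn11* went from 34.0 to 31.5 CPM and from 36.7 to 31.9 CPM, and *Ptpn6* from 5.49 to 5.03 CPM and from 6.14 to 5.40 CPM. The intervals of these ratios held 1 in all 6 cases. In the 3 most periportal bins, where *Themis* differed most between the libraries, the HKO over Flox ratio of *Grb2* was 0.932 [0.777 to 1.12]. It was 1.08 [0.936 to 1.24] for *Ptpn11* and 1.12 [0.784 to 1.59] for *Ptpn6*, and each interval held 1.

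In single nuclei, both the share with a *Themis* UMI and the UMIs per nucleus rose along the index. At such low counts a rise of the mean raises both, so the counts cannot tell these apart. Hepatocyte nuclei were thinned to 2000 UMIs each, which left 6195 and 4666 nuclei and removed 59 and 166 shallower ones. A *Themis* UMI was found in 22.1% [21.1 to 23.2] and 31.5% [30.2 to 32.8] of them. In the 3 most periportal bins the share was 0.749% [0.410 to 1.25] and 9.40% [7.93 to 11.04], in the middle 4 it was 22.5% and 37.0%, and in the 3 most pericentral it was 43.2% and 46.5%. Pure counting at the same means would give 0.746% and 11.9%, then 26.1% and 41.7%, and then 45.55% and 52.5%. At 3 or more UMIs stood 0 of 1870 and 8 of 1415 periportal nuclei, and 65 of 1854 and 86 of 1388 pericentral nuclei. Variance over mean, which is 1 for pure counting, was 1.20 and 1.30 in the 3 most pericentral bins, and 1.51 in the 3 most periportal bins of the library labelled HKO. Thinned to 1000 UMIs, 13.0% and 19.3% of hepatocyte nuclei had a *Themis* UMI, against 0% and 0.718% of endothelial nuclei, where 0 in the former allows up to 0.493%. Without thinning the hepatocyte shares were 44.1% and 54.5% at median depths of 7544 and 5961 UMIs.

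**Figure D4:**
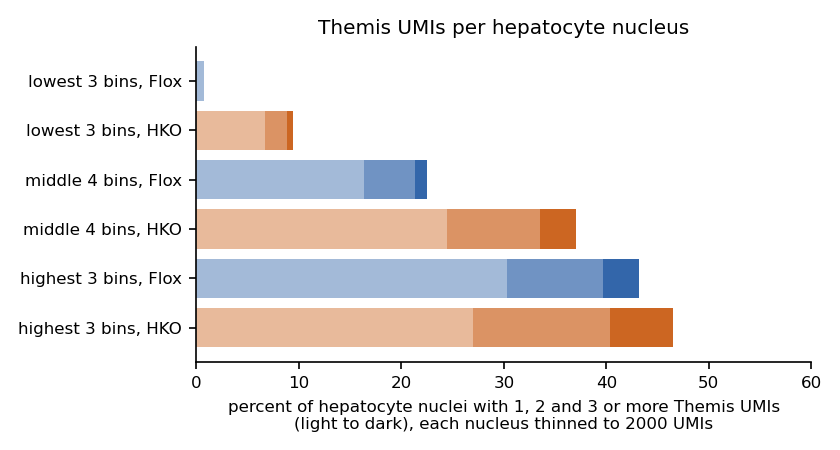
Percent of hepatocyte nuclei with 1, 2 and 3 or more *Themis* UMIs (light to dark) after thinning to 2000 UMIs, by position along the zonal index, blue for the library labelled Flox and orange for that labelled HKO. Nuclei with a UMI made up 0.749% and 9.40% at the periportal end and 43.2% and 46.5% at the pericentral end.

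The path in which GRB2 and SHP2 act was then described in hepatocytes from lists of named genes. Of 21 receptors and adaptors upstream of RAS, 17 had at least 200 hepatocyte UMIs, of which 0 were at least 1.5-fold higher and 2 at least 1.5-fold lower in the library labelled HKO, against 7.25% and 8.21% of all genes, so these counts lay near the background. Those 2 were receptors: *Egfr*, the EGF receptor, at 355 and 90.2 CPM (0.254-fold [0.244 to 0.264]), and *Met*, the HGF receptor, at 194 and 123 CPM (0.633-fold [0.610 to 0.657]). *Erbb3* stood at 124 and 103 CPM, *Klb*, the FGF21 co-receptor, at 16.2 and 22.6 CPM, the ubiquitin ligase gene *Cbl* at 34.4 and 46.5 CPM, and the insulin receptor gene *Insr* at 310 and 368 CPM. The median log2 ratio of the list was 0.09, against -0.01 over all genes.

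Of 12 RAS to ERK genes, 11 had enough UMIs and all 11 lay within 1.5-fold, with a median log2 ratio of 0.25. *Nras* (34.6 and 49.5 CPM) and the ERK1 gene *Mapk3* (10.7 and 14.04 CPM) were at the upper end. *Map2k1* (13.2 and 12.8 CPM), *Hras* (14.7 and 13.1 CPM) and *Map2k2* (65.7 and 54.7 CPM) were at the lower end. Of the 9 measured inhibitors of RAS and ERK, 1 was past 1.5-fold upward and 0 downward. Over all genes 7.25% and 8.21% were, so these counts lay near the background. The gene past 1.5-fold was *Dusp6*, an ERK phosphatase gene, at 56.2 and 105 CPM (1.87-fold [1.78 to 1.97]). *Spred1* stood at 42.7 and 59.1 CPM and *Rasa1* at 60.1 and 74.6 CPM, while *Errfi1* (5422 and 5541 CPM), *Spry4* (29.2 and 26.1 CPM) and *Pebp1* (26.6 and 21.8 CPM) were at the lower end. Of the 8 measured other non-receptor tyrosine phosphatases, 0 passed 1.5-fold on the log2 scale with its pseudocount, from *Ptpn9* at 12.1 and 18.2 CPM down to *Ptpn3* at 42.6 and 34.4 CPM.

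The T cell receptor machinery that THEMIS serves in T cells was largely missing around it in hepatocytes. The 17 genes of that list summed to 9578 and 9022 CPM in T cells and to 78.3 and 94.6 CPM in hepatocytes, and 14 and 15 of them were highest in T cells among the 5 types compared. *Lck*, the kinase that starts the cascade, stood at 564 and 484 CPM in T cells and at 0.256 and 0.613 CPM in hepatocytes. *Lat*, the scaffold that binds GRB2, stood at 313 and 161 CPM in T cells and at 1.34 and 1.07 CPM in hepatocytes. Only 3 genes of the list had at least 200 hepatocyte UMIs. They were *Ptprc*, the CD45 gene, at 8.89 and 25.1 CPM, *Plcg1*, a phospholipase gene of many cells, at 59.6 and 55.2 CPM, and *Zap70* at 4.47 and 1.74 CPM. Macrophage markers in hepatocytes stood at 0.404% and 0.898% of their macrophage level, and the part of such RNA in the *Ptprc* value was not tested. *Lck* and *Lat* are named outside the rule, after their values were seen.

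The inhibitory receptors that recruit SHP1 belonged to other cells too. Their 11 genes summed to 4550 and 4115 CPM in macrophages, 2798 and 2866 CPM in B cells, and 92.2 and 119 CPM in hepatocytes. The hepatocyte sum was mostly *Ceacam1*, a receptor gene of hepatocytes that takes part in insulin clearance, at 69.6 and 62.9 CPM. The other 4 genes with at least 200 hepatocyte UMIs over both libraries were low. *Sirpa* and *Lilrb4a* had 185 and 165 UMIs in the library labelled Flox, under that limit by themselves, so no count by direction is given. *Sirpa* stood at 3.65 and 14.4 CPM, *Lilrb4a* at 3.25 and 11.4 CPM, *Pecam1* at 4.63 and 11.1 CPM and *Fcgr2b* at 5.08 and 8.65 CPM. Macrophage markers in hepatocyte nuclei summed to 41.6 and 74.2 CPM and endothelial markers to 45.6 and 72.8 CPM, and the part of such RNA in these 4 values was not tested.

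Liver gene programs were read beside *Themis* because they bear on the state of the same hepatocytes. The lists on disease-associated hepatocytes (daHep) and senescence hold genes the study named. It gave the daHep genes as enriched in 1 group of hepatocytes that expanded in MASH. Most of the senescence genes it gave as higher in MASH than in chow livers. The study also measured some genes of both lists in HKO livers, so the lists are not independent evidence. Of 12 de novo lipogenesis genes, 11 had enough UMIs, and 9 of these stood at least 1.5-fold above the Flox level and 0 as far below it, with a median log2 ratio of 0.93. Over all genes 7.25% stood as far above and 8.21% as far below, which is the background for each count in this paragraph. *Pklr* stood at 25.2 and 112 CPM, *Fasn* at 34.9 and 89.7 CPM and *Acaca* at 128 and 316 CPM, while *Elovl6* (76.6 and 88.7 CPM) and *Mlxipl* (1483 and 1533 CPM) were within 1.5-fold. Among 13 lipid droplet and PPAR-γ genes, 3 were higher and 3 lower (7.25% and 8.21% over all genes), from the lipoprotein receptor gene *Vldlr* (4.32 and 24.4 CPM) to the lipase inhibitor gene *G0s2* (1858 and 1094 CPM). Among 12 PPAR-α targets, 1 was higher, *Cyp4a14* at 77.5 and 140 CPM, and 2 were lower, among them *Acot1* at 32.9 and 16.9 CPM. Of 5 measured daHep genes, 3 were higher: *Nrg1* at 14.4 and 76.4 CPM, *Anxa2* at 4.41 and 11.1 CPM and *Klf6* at 36.3 and 78.8 CPM. The other two, *Jun* at 74.3 and 106 CPM and *Gdf15* at 105.8 and 77 CPM, were within 1.5-fold, the latter on the lower side at 0.728-fold [0.693 to 0.764]. Of the senescence genes, the p21 gene *Cdkn1a* stood at 11.3 and 36.9 CPM and *Lcn2* at 19.9 and 20.4 CPM. *Mmp12*, a macrophage metalloproteinase gene, stood at 1.03 and 9.13 CPM from 52 and 283 UMIs. Macrophage markers in hepatocytes stood at 0.404% and 0.898% of their macrophage level, and the part of such RNA in the *Mmp12* value was not tested. Among zonal genes, 4 of 12 pericentral and 3 of 4 midlobular genes were lower and 0 higher, and of 10 periportal genes 1 was higher and 2 lower. The counts of the PPAR-α and periportal lists lay near the background.

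Co-detection asked which genes were more or less abundant in the same hepatocyte nuclei as *Themis*. In nuclei thinned to 2000 UMIs, each gene was compared between nuclei with a *Themis* UMI (1371 and 1469) and those without (4824 and 3197), with *Glul*- and *Slc1a2*-high and -low nuclei weighted alike. Nuclei with a *Themis* UMI had a median depth before thinning of 7876 and 6279 UMIs, against 7488 and 5920 UMIs without. Of 8404 genes with at least 100 UMIs in each library, 18 (0.214%) were at least 1.5-fold higher and 64 (0.762%) at least 1.5-fold lower with *Themis* in both libraries. The partners were in neither set. *Grb2* UMIs were found in 2.99% and 3.54% of nuclei with *Themis* and in 4.10% and 4.41% without, with an unstratified ratio of levels of 0.738 [0.518 to 1.03] and 0.803 [0.579 to 1.10]. *Ptpn11* was found in 7.002% and 7.01% of nuclei with *Themis* and in 6.07% and 7.19% without, with a ratio of 1.17 [0.927 to 1.47] and 1.01 [0.798 to 1.27]. *Ptpn6* was found in 0.657% and 1.09% with *Themis* and in 0.974% and 1.001% without, from 57 and 49 UMIs in all. The intervals of the *Grb2* and *Ptpn11* ratios held 1 in both libraries, and the stratified values depended on the setting in the library labelled Flox. There *Ptpn11* had a log2 ratio of 0.21 at 2000 UMIs and of -0.93 at 1000 UMIs, and *Grb2* of -0.43 and 0.08. With mitochondrial UMIs at most 1%, they were -0.29 and 0.24. No direction is therefore given for the partners.

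Nuclei with UMIs of *Themis* and *Grb2* together numbered 41 and 52, where the product of the single shares gives 52.9 and 60.8. For *Themis* and *Ptpn11* they numbered 96 and 103, where the product gives 86.1 and 105. All 3 genes were seen together in 1 and 4 nuclei, where the product gives 3.32 and 4.34.

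**Figure D5:**
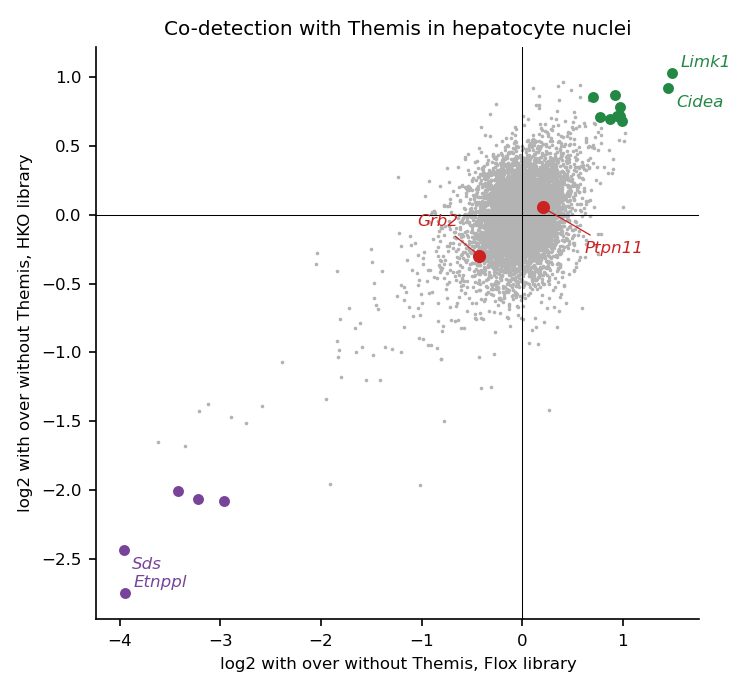
Log2 ratio of each gene's level in hepatocyte nuclei with over without a *Themis* UMI (pseudocount of 1 CPM, zone as stratum), library labelled Flox on the horizontal and HKO on the vertical axis, 1 gray point per gene, with the 10 highest in green, the 5 lowest in purple, and *Grb2* and *Ptpn11* in red. *Sds* and *Etnppl* lie at the low corner near -4 and under -2, and both partners lie in the central cloud.

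The genes most abundant with *Themis* were led by *Limk1*, a kinase gene of the actin cytoskeleton, with log2 ratios of 1.49 and 1.03, and *Cidea*, a lipid droplet fusion gene, with 1.45 and 0.92. *Gm31600*, *Ppp2r1b*, *Gm13775*, *Cidec*, *Zfp992*, *Gm15879*, *Mup9* and *Sema5b* followed, with log2 ratios of 0.71 to 0.99 (Flox) and 0.68 to 0.87 (HKO). Lipid droplet genes were thus represented by a pair: of 9 measured genes of that list, 2 were at least 1.5-fold higher with *Themis* in both libraries and 0 lower. *Cidec*, which enlarges lipid droplets, had a UMI in 16.1% and 14.4% of nuclei with *Themis* and in 7.71% and 8.95% of those without.

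At the low end stood periportal genes. *Etnppl*, a phospholyase gene, had log2 ratios of -3.95 and -2.75, *Sds*, the serine dehydratase gene, of -3.96 and -2.44, and *1810064F22Rik*, *Cryl1* and *Chrm3* of -2.96 to -3.42 and -2.003 to -2.08. Of 8 measured genes of the periportal list, 7 were at least 1.5-fold lower with *Themis* in both libraries, and 2 with the bins of the zonal index as strata. The zones left nuclei with and without *Themis* apart on that index, at a median of 0.724 against 0.279 in the library labelled Flox and 0.472 against 0.221 in that labelled HKO. *Egfr* was found in 36.9% and 10.96% of nuclei with *Themis* and in 46.9% and 17.0% of those without, and its log2 ratio went from -0.52 and -0.72 without strata to -0.12 and -0.39 with the bins as strata. When the bins of the zonal index were used as strata in place of the 2 zones, 1 gene stayed at least 1.5-fold higher in both libraries, *Limk1*, at 0.94 and 0.75, and 11 were lower. *Cidea* stood then at 0.96 and 0.36, *Cidec* at 0.34 and 0.37, *Grb2* at -0.44 and -0.35 and *Ptpn11* at 0.29 and 0.02.

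Finally, the genes with the profile most like each member over 7 cell types in both libraries were found by Pearson's r of log2 levels. The 14 points share libraries and RNA of other cells, so r is a description. For *Themis* these were *Srp72*, *Crybg2* and *Hopx* (r of 0.928, 0.919 and 0.907), and for *Themis2* *Siglece*, *Cd33* and *Vsig4* (0.952, 0.904 and 0.904). For *Grb2* they were *Ncf4*, *Prkcb* and *Slc38a1* (0.963, 0.956 and 0.956), for *Ptpn6* *Arhgap4*, *Nckap1l* and *Was* (0.954, 0.9501 and 0.948), and for *Ptpn11* *Sfr1*, *Zfp764* and *Slc50a1* (0.869, 0.840 and 0.838). Over the 20 points of hepatocyte bins, a comparison added after the data were seen, *Themis* was most like *Dock4*, *Tox* and *Aldh3a2* (0.981, 0.981 and 0.979). *Tox*, a transcription factor gene of T cell development, stood at 0.229 and 6.06 CPM in the most periportal bin and at 67.9 and 107 CPM in the most pericentral bin. *Aldh3a2*, a fatty aldehyde dehydrogenase gene, went from 16.8 to 562 CPM and from 139 to 493 CPM.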

How the data were processed

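The authors deposited unnormalized UMI counts of each gene in each nucleus, made with Cell Ranger 8.0.1 on mm10 (GRCm38) with intronic reads excluded. Exonic counting of nuclei leaves out unspliced RNA. The gene filter stated in the study's methods (300 genes) was applied here. Nuclei were named from marker UMIs: at least 0.2% of UMIs in hepatocyte markers or 0.1% in markers of another type, with at least 2 markers seen; nuclei meeting this for several types (459 and 573) or none (179 and 1001) were left out, which stands in for doublet removal. *Slc8a1* was dropped as a macrophage marker after its values were seen. Hepatocytes with at least 0.1% of UMIs in *Glul* and *Slc1a2* together formed the high zone. UMIs were summed per library and type and divided by the total (CPM), and 3 counts of the total were taken as the limit for 0. Log2 ratios used a pseudocount of 1 CPM. Intervals were exact Poisson, conditional binomial or Clopper-Pearson. Thinning was random without replacement. Members and lists were chosen with earlier results of these data known, and the zonal index after seeing them. From each list, up to 3 genes at either end were named, for co-detection the 10 highest and 5 lowest. Some genes that this rule would name are not reported here. Python 3.11.15, scipy 1.17.1, scanpy 1.11.5 (Scrublet) and edgeR 4.0.16 (TMM) were used. Functions were tested on simulated data.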

Additional observations from a re-analysis of the deposited data

Results flagged for a closer look

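Nuclei outside the comparisons also held *Themis*, at a higher level in the library labelled HKO. Unassigned nuclei stood at 32.1 CPM [14.7 to 61.0] in the library labelled Flox and at 106.9 CPM [90.8 to 125] in that labelled HKO, with hepatocyte markers at 24.4% and 31.7% of their hepatocyte level. Nuclei with markers of several types stood at 90.3 CPM [79.5 to 102] and 118.1 CPM [104 to 134], with hepatocyte markers at 67.0% and 56.3%.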

How the results depend on the processing

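Over 24 alternative settings, 36 results were recomputed as 344 values, of which 313 stayed within the counting interval of the main value (or within 1.5 times it, for counts and background percentages), and 31 moved beyond it. No main value past 1.5-fold changed sign. The hepatocyte log2 ratio of *Themis* was 0.59 with Scrublet doublets left out and 0.59 with TMM factors, still past 1.5-fold. In T cells it was -7.80 with at least 2000 UMIs per nucleus, where 5 and 1 nuclei remained with 3 and 0 UMIs, so this value says nothing. The log2 ratio between zones in the library labelled Flox was 1.11 with the zone rule at 0.2%. The zonal index and its alternatives were chosen after seeing the data: the log2 ratio over the 3 most periportal bins was 2.72 with a pseudocount of 10 CPM and 3.41 with nuclei thinned to 2000 UMIs before ranking, when the middle 4 bins gave 0.81, and the range over 9 alternatives was 2.72 to 4.56. Genes at least 1.5-fold higher with *Themis* in both libraries numbered 11 with mitochondrial UMIs at most 1%, 8 with a pseudocount of 10 CPM, 45 when thinned to 4000 UMIs, 82 without zone strata and 1 with bins as strata, against 18, and those lower numbered 39 with a pseudocount of 10 CPM and 11 with bins as strata, against 64. The cause was not tested. The share of hepatocyte nuclei with a *Themis* UMI was 6.68% and 10.2% at 500 UMIs and 22.1% and 31.5% at 2000 UMIs, as the depth sets it. No paired analysis was possible because each group had 1 library, and no replicate could be left out. Depth limits the partners: in the thinned hepatocyte nuclei *Ptpn6* had 57 and 49 UMIs.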
